A study of Mus musculus with 7 samples.

Results

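The integrin subunits of lymphocytes were followed in naive CD4 T cells (helper T cells before their first contact with antigen) of mice with an overactive phosphoinositide 3-kinase delta (PI3K delta). The set is 9 genes chosen by name, 5 alpha chains (Itgal, Itga4, Itga6, Itgae, Itgav) and 4 beta chains (Itgb1, Itgb2, Itgb3, Itgb7), out of 34745 genes in the deposited table. All 9 had enough counts to be among the 12668 genes tested. RNA was sequenced from splenic cells of 8-week-old male C57BL/6 mice, 3 wild type (WT) and 4 that carry, on 1 chromosome copy, a Pik3cd allele of gained function (heterozygous PIK3CD GOF). Pik3cd encodes p110 delta, the catalytic subunit. Controls were littermates matched for age and sex, no treatment was given, and a Stemcell kit removed the unwanted cells, and the T cells were taken ex vivo. The design gives 3 to 4 mice per group; how the allele was made and how pure the cells were are not stated in the labels. The study asked which genes differ between mutant and wild-type naive CD4 T cells.

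An integrin is a pair of an alpha and a beta chain that spans the membrane and holds a cell to matrix or to another cell. On resting lymphocytes most integrins are bent and bind weakly. Signals from the T cell receptor or from chemokine receptors act through the small GTPase Rap1 and the proteins talin and kindlin, which bind the tail of the beta chain and switch the receptor on. PI3K lies on these routes, so that the receptors studied here are among its known effectors, while the abundance of their mRNAs is a separate quantity. Pairing is selective, since beta2 serves the leukocyte integrins, beta7 pairs with alpha4 and alphaE, and beta1 and beta3 serve receptors for laminin, fibronectin and other matrix proteins.

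The libraries held 14497957 to 15015783 counts in WT and 14945520 to 16293539 in GOF. The 9 genes took 0.218% to 0.257% of counts in WT and 0.284% to 0.313% in GOF. Pik3cd mRNA itself, which does not show the allele, was at 938, 1511 and 959 CPM (counts per 1000000) in WT and 543, 762, 538 and 765 CPM in GOF (log2 fold change -0.80, SE 0.20, edgeR adjusted p = 0.0154; without GOF replicates 1 and 3, -0.58 and 0.106). All 9 markers of CD4 T cells examined were present, and 7 rose and 0 fell in GOF, beside 16.8% of all tested genes called higher and 14.5% lower. Cd4 had means of 755 and 1107 CPM in WT and GOF, and the naive marker Ccr7 had 733 CPM in WT and 636 CPM in GOF (both chosen after their values were seen). Markers of several other cell types were higher in GOF, among them 10 of 12 tested for macrophages and 7 of 8 for neutrophils, beside the same shares. Of 4 for stroma and endothelium 0 rose and 1 fell. The 1 was Pecam1, also in the ligand list below, at 382 CPM in WT, where the endothelial marker Cdh5 had 0.487 CPM. Many of the macrophage and neutrophil markers had few WT counts (0 for Mertk and Camp) and were tested because of their GOF level, so these counts are a description. The summed level went from 27.1 to 39.7 CPM in WT to 122 to 460 CPM in GOF for macrophages, and from 0.766 to 8.91 CPM to 58.7 to 211 CPM for neutrophils. GOF replicates 1 and 3 were the highest in both lists, so results are also given without them where that changes a call. In bulk RNA, fewer cells of a type and less RNA per cell cannot be told apart, and this holds for every value below.

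Of the 9 subunits, 4 rose in GOF (Itgal, Itgae, Itgb2 and Itgb7), 3 fell (Itga4, Itga6 and Itgb3) and 2 did not pass the test (Itgav and Itgb1). Among all tested genes 16.8% were called higher and 14.5% lower, 31.3% in either direction, at an adjusted p under 0.05 in edgeR's quasi-likelihood test. The GOF and WT libraries did not overlap for 8 of the 9 subunits, 5 with GOF higher and 3 with GOF lower. Over all tested genes the groups did not overlap for 39.8%, 21.5% with GOF higher and 18.2% with GOF lower. The changes therefore did not run in a single direction within the family, and each receptor is described below by its chains.

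**Figure D1:**
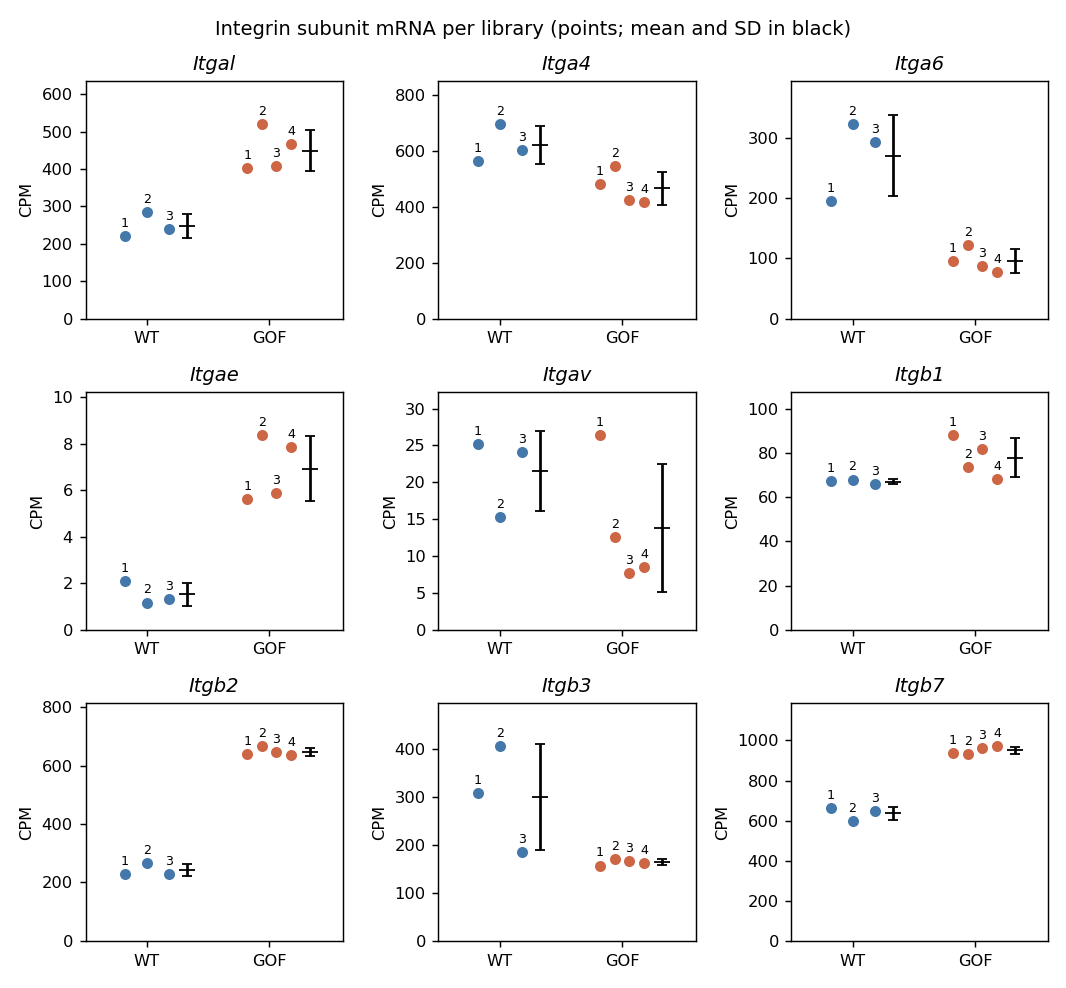
Each panel plots the mRNA level of a subunit in CPM (linear axis from 0) in the 3 WT and 4 GOF libraries, with the replicate number above each point and the mean and SD in black. Itgal, Itgae, Itgb2 and Itgb7 lie higher in every GOF library than in every WT library, Itga4, Itga6 and Itgb3 lie lower, and Itgav overlaps.

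Itgal and Itgb2 encode the alphaL and beta2 chains of LFA-1, the receptor for ICAM-1 and ICAM-2 that holds T cells to antigen-presenting cells and to vessel walls. Itgal (ENSMUSG00000030830, mm10 chromosome 7, 127296260 to 127335138, protein-coding) was measured at 222, 285 and 240 CPM in WT and at 403, 521, 408 and 466 CPM in GOF. The lowest GOF library thus lay well above the highest WT library. WT libraries averaged 249 ± 32.4 CPM (SD, n = 3) and GOF libraries 449 ± 55.6 CPM (SD, n = 4) (log2 fold change 0.85, SE 0.12, edgeR adjusted p = 0.00108). Within GOF, the libraries with the lowest Itgal were replicates 1 and 3, those with the most macrophage and neutrophil marker RNA. What part such cells have in the level of Itgal was not tested.

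Itgb2 (ENSMUSG00000000290, mm10 chromosome 10, 77530252 to 77565708, protein-coding) had a larger log2 fold change than its partner and little spread among the GOF libraries. Its level was 229, 266 and 230 CPM in WT and 639, 666, 645 and 636 CPM in GOF, so that the GOF libraries lay within a narrow band far above WT. This is a 2.67-fold rise (log2 fold change 1.42, SE 0.08, edgeR adjusted p = 7.43e-06), with a coefficient of variation of 2.12% among the GOF libraries. All leukocytes carry beta2, macrophages and neutrophils included. In GOF replicates 1 to 4 the summed macrophage markers were 442.5, 122, 460.1 and 145 CPM. Without GOF replicates 1 and 3 the log2 fold change of Itgb2 was 1.42. The part of these cells in the level of Itgb2 was not tested.

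The other alpha chains that pair with beta2 were also higher in GOF and are typical of myeloid cells. Itgam, the alpha chain of the complement receptor Mac-1, rose from 2.12 ± 0.722 to 12.4 ± 6.59 CPM (edgeR adjusted p = 0.00460). Itgax, a marker of dendritic cells, rose from 0.286 ± 0.438 to 12.4 ± 5.42 CPM (edgeR adjusted p = 0.000995), with 12 counts in all WT libraries together. Itgad, the alphaD chain found on splenic macrophages, rose from 0.0689 to 14.4 ± 6.82 CPM (edgeR adjusted p = 0.000153), with 3 counts in all WT libraries together. Itgax and Itgad were tested because of their GOF level, so their calls are a description. Per length their GOF means were 1.76, 2.39 and 2.83 FPKM (counts scaled by gene length and library total), against 48.7 FPKM for Itgal. The macrophage and neutrophil lists were higher in the same GOF libraries, and the part of myeloid cells in these 3 rises was not tested.

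Itga4 and Itgb7 form alpha4beta7, the receptor for MAdCAM-1 on the vessels of gut and its lymphoid tissue, and alpha4 also pairs with beta1 to form VLA-4, a receptor for VCAM-1 and fibronectin. The chains of alpha4beta7 moved in opposite directions. Itgb7 (ENSMUSG00000001281, mm10 chromosome 15, 102215995 to 102231935, protein-coding) was at 662, 598 and 650 CPM in WT and at 936, 933, 961 and 972 CPM in GOF. Every GOF library lay above every WT library, with means of 636 ± 34.0 CPM in WT (SD, n = 3) and 950 ± 19.2 CPM in GOF (SD, n = 4), a rise of 0.58 in log2 (SE 0.07, edgeR adjusted p = 0.000566). Itga4 (ENSMUSG00000027009, mm10 chromosome 2, 79255426 to 79333123, protein-coding) was at 562, 696 and 605 CPM in WT and at 481, 544, 423 and 416 CPM in GOF. The highest GOF library was close below the lowest WT library, and the fit gave a log2 fold change of -0.41 (SE 0.12, edgeR adjusted p = 0.0259). This call was the least stable of the family, since it was lost when any library but WT replicate 1 or GOF replicate 2 was left out (adjusted p = 0.0552 to 0.0780) and in all 3 limma settings (0.0597 to 0.0617). Exons of Itga4 and of Cerkl on the opposite strand share 1124 bases in GENCODE M21, and whether the counting used strand is not given. Cerkl had 13 to 56 counts per library and Itga4 6463 to 10113.

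The promoters of these partner chains are shown because the chains form a single receptor and changed in opposite directions, and because they are the called subunits with an entry in the RefSeq promoter table (GRCm38.p6, the assembly of mm10), in which 4 of the 9 subunits were matched. Each runs from 250 bases before to 50 bases after the start site and is read on the strand of the gene, chr2:79255176-79255475 on the plus strand for Itga4 and chr15:102231886-102232185 on the minus strand for Itgb7. Capitals mark matches on either strand to CACCC, letters bound by KLF factors, and to TGTGGT, letters bound by RUNX factors.
Itga4: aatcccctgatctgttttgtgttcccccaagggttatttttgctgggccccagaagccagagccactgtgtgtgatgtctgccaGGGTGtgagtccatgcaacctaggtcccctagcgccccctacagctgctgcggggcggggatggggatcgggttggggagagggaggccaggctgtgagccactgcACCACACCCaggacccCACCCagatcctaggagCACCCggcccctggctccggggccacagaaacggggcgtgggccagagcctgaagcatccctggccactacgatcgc
Itgb7: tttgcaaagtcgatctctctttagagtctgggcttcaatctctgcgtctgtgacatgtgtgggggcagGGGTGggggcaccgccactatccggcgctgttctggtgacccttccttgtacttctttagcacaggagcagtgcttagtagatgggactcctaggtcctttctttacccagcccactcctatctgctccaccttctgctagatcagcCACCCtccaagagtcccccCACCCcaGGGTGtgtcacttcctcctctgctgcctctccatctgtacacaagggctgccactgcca
The Itga4 window holds 4 matches to CACCC and 1 to TGTGGT, which lies on the opposite strand 60 bases before the start site and overlaps a CACCC match. The Itgb7 window holds 4 matches to CACCC and 0 to TGTGGT. Of all 32851 windows of this length in the table, 57.5% hold CACCC and 16.8% TGTGGT on either strand. Neither window holds GTAAACA, the letters of FOXO factors, which 3.65% of windows hold. The core GGAA of ETS factors, not capitalised here, occurs 1 time in Itga4 and 2 times in Itgb7 and is present in 96.0% of windows. Both promoters carry the same number of CACCC matches. A match in letters is not a measured binding site, and the part of these letters in the mRNA changes was not tested.

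Itgae encodes alphaE (CD103), which pairs with beta7 to bind E-cadherin on epithelium and is carried by tissue-resident CD8 T cells, some regulatory T cells and some dendritic cells. Itgae (ENSMUSG00000005947, mm10 chromosome 11, 73090583 to 73147446, protein-coding) was low everywhere, at 2.08, 1.17 and 1.32 CPM in WT and 5.60, 8.37, 5.89 and 7.85 CPM in GOF. These levels rest on 17 to 29 counts per WT library and 86 to 131 per GOF library. The groups did not overlap, and the rise was the largest among the 9 subunits in the edgeR fit, 4.53-fold (log2 fold change 2.18, SE 0.30, edgeR adjusted p = 0.000800). On the log2(FPKM + 1) scale of limma, which shrinks changes of low genes, it was 0.93 (adjusted p = 0.000561), below the 1.48 of Itgb2 there. Markers of other cells, some of which can carry CD103, were read in the same libraries. Of 5 markers of regulatory T cells 3 rose and 2 fell, beside 16.8% and 14.5% of all tested genes. Their summed level was 258 to 341 CPM in WT and 285 to 313 CPM in GOF. Foxp3, which sets their lineage, had 30.6 CPM in WT and rose to 72.0 CPM in GOF, and Tnfrsf18, the receptor GITR, fell from 172 to 55.8 CPM. Of 11 markers of NK and CD8 T cells 9 rose and 0 fell, again beside 16.8% and 14.5% of all tested genes. Ncr1, with 20 counts in all WT libraries together, was tested because of its GOF level, so this count is a description. Cd8a and Cd8b1 had 9.67 and 24.0 CPM in WT and 5.63 and 20.5 CPM in GOF and did not pass. The part of these cells in the rise of Itgae was not tested. Itgae was lowest in GOF replicates 1 and 3, and without them its log2 fold change was 2.39 (edgeR adjusted p = 0.00448).

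Itga6 and Itgb1 encode alpha6 and beta1, which together form a laminin receptor, and beta1 is also the partner of many other alpha chains. Itga6 (ENSMUSG00000027111, mm10 chromosome 2, 71745616 to 71858416, protein-coding) was at 195, 323 and 292 CPM in WT and at 95.5, 123, 86.6 and 76.7 CPM in GOF. The highest GOF library was well under the lowest WT library. This was the largest fall among the 9 subunits, 2.83-fold, with 270 ± 66.8 CPM in WT (SD, n = 3) and 95.4 ± 19.8 CPM in GOF (SD, n = 4; log2 fold change -1.50, SE 0.20, edgeR adjusted p = 0.000632). Itgb1 (ENSMUSG00000025809, mm10 chromosome 8, 128685654 to 128733200, protein-coding) was nearly constant in WT, at 67.4, 68.0 and 66.0 CPM, and lay at 88.2, 73.5, 81.8 and 68.3 CPM in GOF. GOF replicate 4 was barely above the highest WT library, and GOF replicates 1 and 3 were the highest. The log2 fold change of Itgb1, 0.22 with an SE of 0.11, did not pass the test (edgeR adjusted p = 0.156), and it was 0.07 without GOF replicates 1 and 3 and 0.35 without replicates 2 and 4 (adjusted p = 0.734 and 0.0519).

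Itgav and Itgb3 encode alphaV and beta3, which pair to form a receptor for vitronectin, osteopontin and other ligands, and beta3 is also the beta chain of the platelet fibrinogen receptor. Itgav (ENSMUSG00000027087, mm10 chromosome 2, 83724397 to 83806916, protein-coding) was at 25.2, 15.4 and 24.1 CPM in WT and at 26.4, 12.6, 7.70 and 8.55 CPM in GOF. GOF replicate 1 was the highest of all 7 libraries and the other GOF libraries were below every WT library. The fit gave a log2 fold change of -0.64 (SE 0.41, edgeR adjusted p = 0.263), and without GOF replicate 1 it was -1.16 (adjusted p = 0.0154), so that this library decides the call.

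Itgb3 (ENSMUSG00000020689, mm10 chromosome 11, 104608000 to 104670476, protein-coding) was spread widely in WT, at 309, 406 and 186 CPM, and hardly at all in GOF, at 157, 171, 166 and 163 CPM. WT replicate 3 was close to the GOF libraries, and the groups were just separate. WT averaged 300.5 ± 110 CPM (SD, n = 3) and GOF 164 ± 5.88 CPM (SD, n = 4; log2 fold change -0.87, SE 0.21, edgeR adjusted p = 0.0132). It was -0.60 without WT replicate 2 and -1.13 without WT replicate 3. Without GOF replicates 1 and 3, and without 2 and 4, the call was lost (adjusted p = 0.0859 and 0.073). Platelets carry beta3 together with the chain of Itga2b, which had 12.2 CPM in WT and 7.08 CPM in GOF and did not pass (edgeR adjusted p = 0.0830). The 11 platelet markers, Itga2b included, summed to 14 to 15.4 CPM in WT and 10.9 to 29.3 CPM in GOF, and Itga2b made up most of the WT sum. Of the 11, 5 (Gp9, Gp1ba, Gp1bb, Gp6 and Treml1) had 0 counts in all WT libraries. Of 5 platelet markers tested, 3 (Ppbp, Gp9 and Clec1b) rose and 0 fell, beside 16.8% and 14.5% of all tested genes. Gp9 and Clec1b, with 0 and 4 counts in all WT libraries together, were tested because of their GOF level, so this count is a description. The part of platelet RNA in the level of Itgb3 was not tested.

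**Figure D2:**
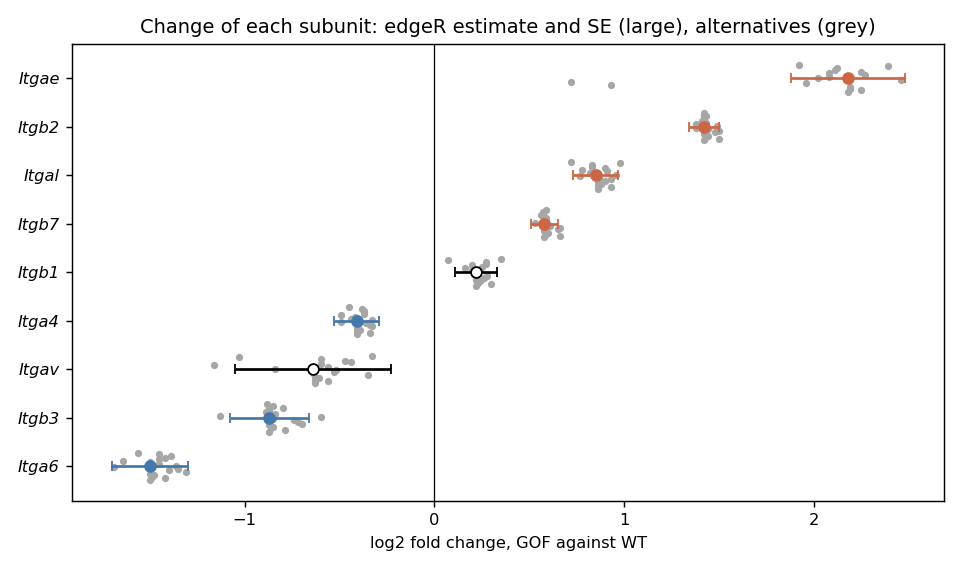
The horizontal axis gives the log2 fold change of each subunit, GOF against WT, as the edgeR estimate with its SE (large points; orange higher, blue lower, open not past the test) and, in grey, under the other settings and with libraries left out. Itgae is at 2.18 and Itga6 at -1.50, no subunit changes sign, and the 2 grey points of Itgae under 1 are those of limma on log2(FPKM + 1).

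Levels of different subunits were compared per length, in FPKM. Itgb7 had the highest level in both groups, 221 ± 12.1 FPKM (SD, n = 3) in WT and 348 ± 5.59 FPKM (SD, n = 4) in GOF, followed by Itgb2 with 50.3 and 142 FPKM. In WT the order went on with Itga4, Itgb3, Itgal and Itga6 at means of 38.6, 33.7, 25.6 and 21.3 FPKM, and the ranges of each of these neighbours overlapped. Itgb1 (11.5 FPKM), Itgav (1.51 FPKM) and Itgae (0.315 FPKM) came below them, each apart from the next. In GOF Itgal, at 48.7 FPKM, stood above Itga4 at 30.5 FPKM in all 4 libraries, followed by Itgb3 at 19.5, Itgb1 at 14.1 and Itga6 at 7.92 FPKM with no overlap between neighbours. Itgae and Itgav were the lowest, at 1.51 and 1.026 FPKM, and their ranges overlapped. The leading alpha chain was thus Itga4 in each WT library and Itgal in each GOF library.

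The summed FPKM of the 5 alpha chains was 74.6, 99.1 and 88.2 in WT and 86.8, 105, 80.8 and 86.0 in GOF, so that the groups overlapped. The sum of the 4 beta chains was 321, 320 and 310 in WT and 520, 522, 527 and 524 in GOF, with a wide gap between the groups. Within the alpha pool Itgal went from 29.3% ± 1.02 (SD, n = 3) in WT to 54.4% ± 3.21 (SD, n = 4) in GOF, while Itga4 went from 44.4% ± 1.79 to 34.0% ± 2.05 and Itga6 from 24.2% ± 3.26 to 8.78% ± 1.00. Within the beta pool Itgb2 went from 15.9% ± 1.30 to 27.1% ± 0.674, Itgb3 from 10.6% ± 3.70 to 3.72% ± 0.126, and Itgb7 kept the largest share, 69.9% ± 4.59 in WT and 66.5% ± 0.840 in GOF. These shares describe mRNA and say nothing of the chains at the cell surface.

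**Figure D3:**
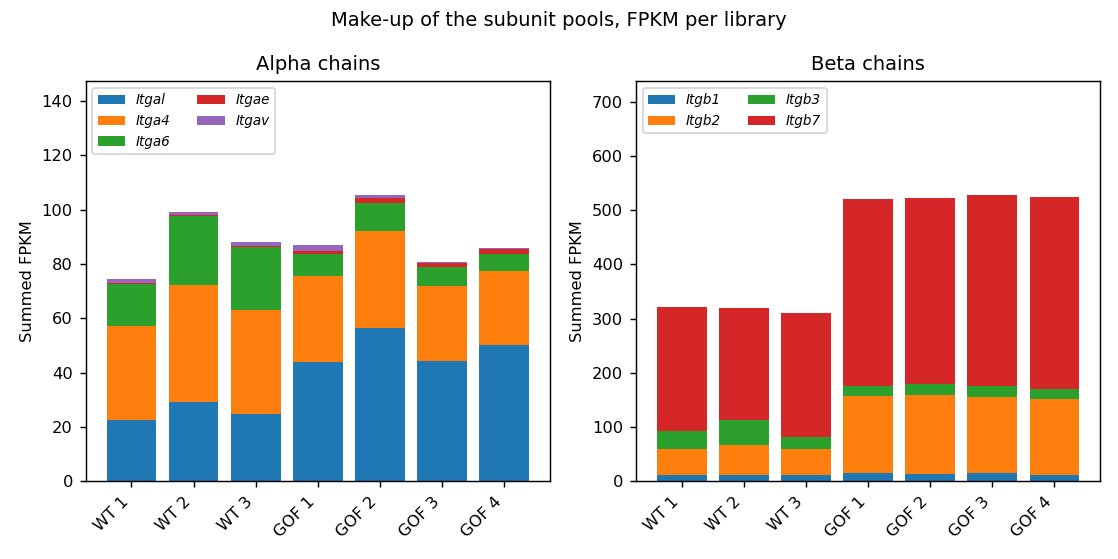
Stacked bars give the FPKM of the 5 alpha chains (left) and the 4 beta chains (right) in each library, from 0. The alpha sums lie between 74.6 and 105 in all libraries with Itgal taking the larger part in GOF, and the beta sums rise from at most 321 in WT to at least 520 in GOF.

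Ratios of partner chains within a library do not depend on how libraries are scaled to each other. Of 8 ratios examined, 6 did not overlap between the groups, and for each of these the exact permutation test over libraries gave p = 0.0571 (2-sided, 35 arrangements), the smallest this design allows, or 0.0761 after Benjamini-Hochberg adjustment over the 8. None could therefore pass 0.05. The FPKM ratio of Itgal to its beta chain Itgb2 was 0.478, 0.528 and 0.514 in WT and 0.312, 0.387, 0.313 and 0.362 in GOF. The ratio of Itga4 to Itgb7 was 0.152, 0.208 and 0.166 in WT and 0.0919, 0.104, 0.0787 and 0.0765 in GOF, a 2.0-fold lower geometric mean. Itga4 to Itgb1 fell from a geometric mean of 3.34 to 2.16, lower in 4 of 4 GOF libraries than in any WT library.

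The ratio of Itga6 to Itgb1 moved the most among those that fell. It was 1.33, 2.18 and 2.04 in WT and 0.497, 0.767, 0.486 and 0.516 in GOF, so that Itga6 exceeded Itgb1 in every WT library and was below it in every GOF library. Itgae to Itgb7 went the other way, from a geometric mean of 0.00138 to 0.00427, a log2 difference of 1.63, or 0.64 when 0.5 is added to each FPKM. Itgb7 to Itgb1, the beta chains that share alpha4, was 19.9, 17.8 and 20 in WT and 21.5, 25.7, 23.8 and 28.8 in GOF. The ratios of Itgav overlapped between the groups, with a difference in mean log2 ratio of -1.0 to Itgb1 (exact permutation test, 2-sided, p = 0.114, adjusted 0.130) and 0.01 to Itgb3 (p = 0.971, adjusted 0.971). Itgav and Itgb3 both had wide spreads in 1 of the groups, and their ratio changed sign with the library left out.

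**Figure D4:**
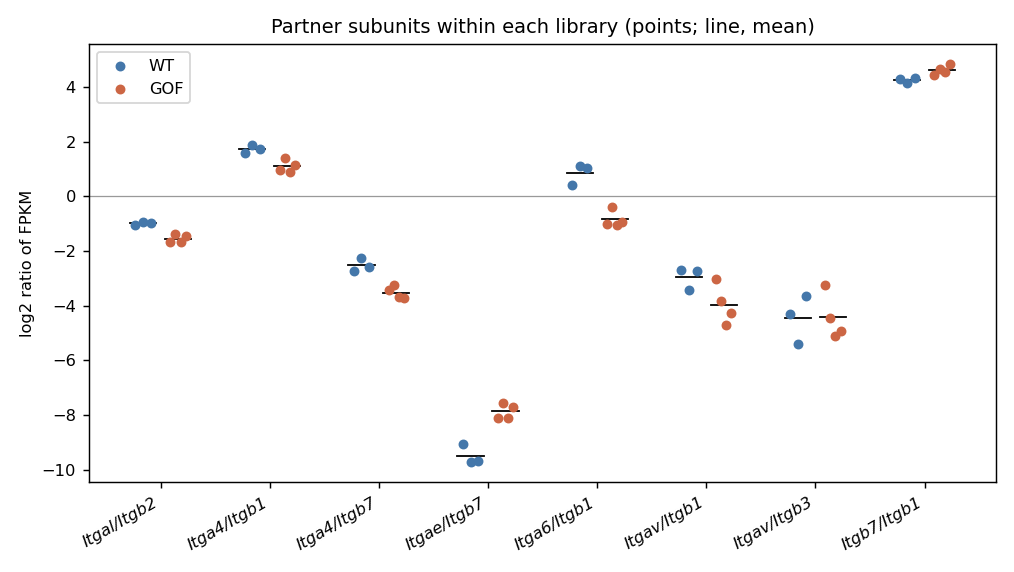
The vertical axis gives the log2 of the FPKM ratio of each pair of subunits in each library, blue for WT and orange for GOF, with a line at the mean. The groups are separate for the pairs other than Itgav/Itgb1 and Itgav/Itgb3, and Itga6/Itgb1 crosses 0, from 0.85 to -0.85.

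Genes around the integrins were counted in lists by role, beside a median log2 fold change of 0.01 over all tested genes, of which 16.8% rose and 14.5% fell. Of 19 other integrin subunits 12 could be tested, of which 6 rose and 2 fell, with a median of 1.09. The 6 were Itgad, Itgam, Itgax, Itga9, Itgb5 and Itgb8. Itgb5, a beta chain that pairs with alphaV, rose from 0.211 to 4.72 ± 2.94 CPM (edgeR adjusted p = 0.00164). Itga7, a laminin receptor chain like alpha6, fell from 23.7 ± 10.0 to 7.91 ± 0.785 CPM (edgeR adjusted p = 0.00172), and so did Itga3, also a laminin receptor chain (11.9 to 5.91 CPM, adjusted p = 0.00253, named here because of its value). Genes that passed the filter through a high GOF level alone, such as Itgad, had to differ, so the count of this list is a description.

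Of 28 tested genes of inside-out activation 4 rose, 4 fell and 20 did not pass (median 0.04), a share of calls near the 31.3% of all tested genes. Talin itself was at 841 CPM in WT and 816 CPM in GOF (Tln1, log2 fold change -0.04, SE 0.08, edgeR adjusted p = 0.725), and Rap1b at 559 and 552 CPM (adjusted p = 0.875), both chosen after their values were seen. Kindlin-3, encoded by Fermt3, rose from 283 ± 35.6 to 382 ± 13.5 CPM (adjusted p = 0.00932, likewise chosen later). Rasgrp1 loads Ras with GTP downstream of the T cell receptor, and it fell by 1.21 in log2 (SE 0.09), with 1242 ± 64.4 CPM in WT and 537 ± 44.4 CPM in GOF (edgeR adjusted p = 2.42e-05). Rasgrp2, the exchange factor CalDAG-GEFI that loads Rap1, rose from 249 ± 13.7 to 418 ± 57.0 CPM (edgeR adjusted p = 0.00142). Rap1gap2, a GTPase-activating protein that turns Rap1 off, rose from 0.260 to 14.2 ± 2.88 CPM on 11 WT counts in all (adjusted p = 2.56e-05). It was tested because of its GOF level, so its call is a description. Of the same class, Sipa1l1 fell from 284 to 143 CPM (adjusted p = 8.07e-05). Sipa1, also of this class, rose from 265 to 417 CPM (adjusted p = 0.00253, likewise chosen later).

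Of 13 tested inhibitors and other tail-binding proteins 4 rose and 2 fell (median 0.28), beside 16.8% and 14.5% of all tested genes. Tns1, a tensin that links beta tails to actin, rose from 9.40 ± 1.35 to 22.7 ± 0.908 CPM (edgeR adjusted p = 0.000255), and Tns4 rose from 0.139 to 1.33 CPM, near the level of a few counts. Tns4 was tested because of its GOF level, so the count of this list is a description. Cyth1, cytohesin-1, which binds the beta2 tail and is also counted in the activation list, fell from 422 ± 11.6 to 315 ± 15.2 CPM (adjusted p = 0.00263). Of 22 adhesion adaptors and kinases 4 rose and 2 fell (median -0.09), near the same shares of all tested genes. Vasp, an actin regulator, rose from 314 ± 18.6 to 514 ± 15.99 CPM (adjusted p = 0.000193). The related focal adhesion kinases moved apart, since Ptk2, encoding FAK, fell from 21.3 to 12.4 CPM (adjusted p = 0.00260) and Ptk2b, encoding Pyk2, rose from 275 to 350 CPM (adjusted p = 0.0125, lost in 3 of 18 alternatives with values up to 0.0697). Parvb, a parvin, rose from 2 counts in all WT libraries to 3.33 ± 1.15 CPM in GOF (adjusted p = 0.000564). It too was tested because of its GOF level, so its call is a description.

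Among ligands 5 of 13 tested genes rose and 4 fell (median 0.39), beside 16.8% and 14.5% of all tested genes. Of the rises, 3 (Vcam1, Fn1 and Cdh1) were of genes with 4 to 32 counts in all WT libraries together, tested because of their GOF level. Vcam1, the ligand of alpha4beta1 and also a macrophage marker, rose from 0.681 to 50.2 ± 30.1 CPM (edgeR adjusted p = 0.000170), and Cdh1, E-cadherin, the ligand of alphaEbeta7, from 0.0923 to 1.43 ± 0.630 CPM (adjusted p = 0.00523). Lama5, a laminin chain, fell from 16.5 ± 5.59 to 0.257 ± 0.142 CPM (adjusted p = 1.73e-05) and Pecam1 fell from 382 to 227 CPM (adjusted p = 0.00271). Of the ligands of LFA-1, Icam1 had 44.4 CPM in WT and 49.4 CPM in GOF and did not pass (adjusted p = 0.487), and Icam2 fell from 65.3 to 49.1 CPM (adjusted p = 0.0494), both named with their values known. Of 16 membrane proteins that associate with integrins 5 rose and 3 fell (median -0.06), again beside 16.8% and 14.5% of all tested genes. The tetraspanin Cd37 rose from 123 ± 10.7 to 289 ± 17.1 CPM (adjusted p = 2.47e-05), whereas the tetraspanin Cd9 fell from 89.0 ± 7.34 to 54.1 ± 1.27 CPM (adjusted p = 0.000483). Cd226, the receptor DNAM-1 that associates with LFA-1, rose from 12.1 ± 2.43 to 28.6 ± 3.09 CPM (adjusted p = 0.000741), and Thy1, which can bind beta3 integrins, from 400.0 to 946 CPM (adjusted p = 2.53e-05). Macrophage markers were higher in the same GOF libraries, and their part in the counts was not tested.

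**Figure D5:**
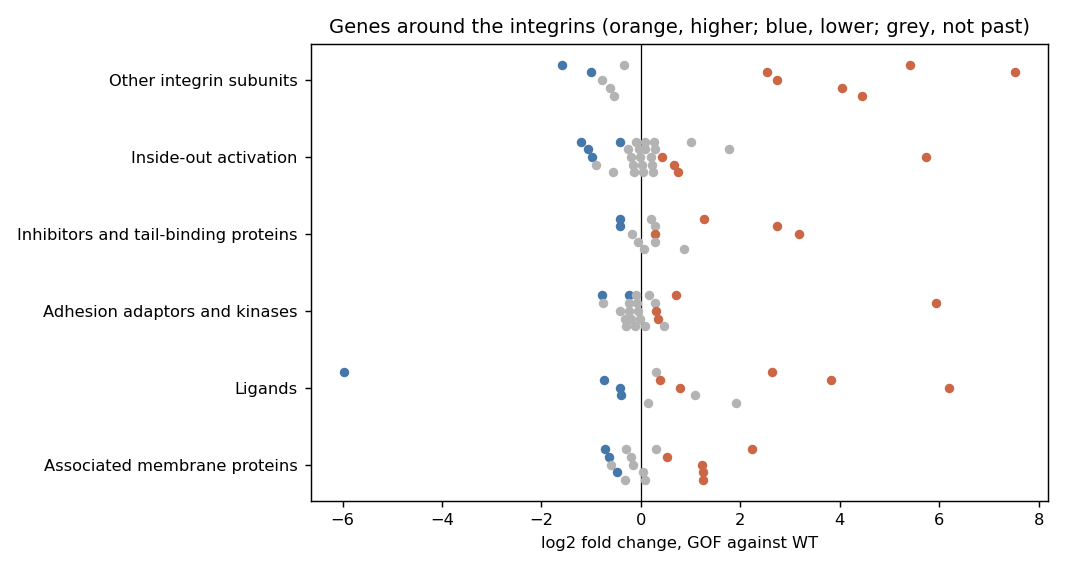
Each point is a tested gene, placed by its log2 fold change, GOF against WT, in the 6 lists of genes around the integrins (orange higher, blue lower, grey not past the test). Most genes of inside-out activation lie near 0, with a median of 0.04, while the other integrin subunits spread widely around a median of 1.09.

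The genes most like the subunits with the largest rise and fall were named by Pearson's r of log2(CPM + 0.5) over the 7 libraries, among genes with a mean of at least 5 FPKM. For Itgae they were Dennd1c (r = 0.995), Pstpip1 (r = 0.991) and Pbxip1 (r = 0.991), out of 6167 genes compared. Their own changes were small beside that of Itgae, with log2 fold changes of 0.58, 0.52 and 0.17, the last not past the test (edgeR adjusted p = 0.0834). For Itga6 they were Scaf11 (r = 0.999), Itch (r = 0.998) and Tbc1d23 (r = 0.996), with log2 fold changes of -0.41, -0.55 and -0.43. These values share the libraries and the genotype contrast, and with 7 points they are a description.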

How the data were processed

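The deposited table gives raw counts and, beside them, the authors' FPKM for every gene of each library (mm10), per the file headers and the labels. HISAT2 2.0.4, Cufflinks 2.1.1 and Cuffdiff are named in the submitters' processing notes with no role; the counting rule, strand setting and treatment of multiply mapped reads are not given in these sources. Each deposited FPKM equals its count divided by a fixed gene length and the column total (within 0.1% for 100% of genes), so FPKM carries no further scaling. Columns were matched to samples through the labels. Loci of 8 of the 9 subunits were identical in GENCODE M21.

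Counts were tested across all 12668 genes kept by filterByExpr with edgeR 4.0.16 (quasi-likelihood, TMM, R 4.3.3) in 1 model of 2 groups, with Benjamini-Hochberg adjustment at 0.05. CPM uses TMM-scaled totals, and means are given with SD over 3 WT and 4 GOF libraries. The SE of a log2 fold change comes from the fold change and its F statistic. The edgeR p-values set the difference between groups against the spread between libraries of a group, which edgeR moderates across genes. Alternatives used DESeq2 1.42.0, limma 3.58.1, other filters and scalings, and fewer libraries. The scripts were tested on simulated data.

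The subunits, lists and naming rule (all 9 subunits; in each list up to 4 called genes with the smallest p; genes outside it are said to be chosen later) were set with earlier results of these data known. Itgad, Itgam, Itgax and the genes most alike also follow the rule; Cd4, Ccr7, Tnfrsf18, Cd8a and Cd8b1 were chosen later. The promoters of Itga4 and Itgb7 were chosen after their values were seen. No libraries of a group agreed within counting noise, so none looked like a second sequencing of another, and all 7 were used. This check cannot tell separate mice from separate preparations of the same RNA. Some genes that the rule names are not reported here.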

Additional observations from a re-analysis of the deposited data

Results flagged for a closer look

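In the group of 4 GOF libraries, 65 values (of subunits, other named genes and ratios) were examined for a library far from the other 3, and 3 stood out by Dixon's criterion, where chance gives about 1 in 20. The log2 FPKM ratio of Itga6 to Itgb1 was -0.38 in GOF replicate 2, against -1.04 to -0.95 in the others, still below every WT library. Vasp was at 537.7 CPM in GOF replicate 4, against 504.4 to 506.7 CPM. Thy1 was at 841.7 CPM in GOF replicate 2, against 971.4 to 997.1 CPM.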

How the results depend on the processing

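Itgal, Itga6, Itgb2 and Itgb7 kept their direction and their call under all 18 alternatives (other scalings, filters and tools, and libraries left out), and Itgae under the 17 that tested it, since its mean is below the FPKM minimum of 1. Their log2 fold changes ran from 0.72 to 0.98, from -1.69 to -1.31, from 1.38 to 1.5, from 0.53 to 0.66 and, for Itgae, from 0.72 to 2.46. Itgb1 stayed uncalled in all 18. Itga4 lost its call at -0.33, -0.34 and -0.36 in limma on log2(FPKM + 1), on log2(FPKM + 0.1) and after quantile normalization, and at -0.38 without GOF replicates 1 and 3 (adjusted p = 0.136); with single libraries left out it ran from -0.49 to -0.33. Itgb3 lost its call at -0.85 without GOF replicates 1 and 3 and at -0.88 without replicates 2 and 4, and ran from -1.13 to -0.60 with single libraries left out. Itgav ran from -1.16 to -0.44 with single libraries left out. Without GOF replicates 1 and 3 the subunits called lower went from 3 to 1, those called higher stayed at 4, and all genes called went from 2130 higher and 1838 lower to 1074 and 1050; without replicates 2 and 4, which leaves as many libraries, they were 1764 and 1358, with 2 subunits lower, and the cause was not tested. The split of all calls moved to 2598 higher and 1390 lower (limma, FPKM pseudocount 1) and to 2673 and 1384 (pseudocount 0.1), and turned to 1870 higher and 2107 lower in limma after quantile normalization. Of the 8 ratios 7 kept their direction, Itgae/Itgb7 went from 1.63 to 0.64 with a pseudocount of 0.5, Itgb7/Itgb1 from 0.37 to 0.24 without GOF replicates 2 and 4, and Itgav/Itgb3, at 0.01, turned to -0.24 without GOF replicates 1 and 3 and ran from -0.47 to 0.42 with single libraries left out; the cause was not tested. Same-numbered libraries of the groups deviated with correlations of 0.03, 0.091 and -0.068, and not every library correlated best with its own number. The labels state no pairing, and correlations this near 0 cannot exclude one. With a replicate block 1677 genes were higher and 1519 lower, and the subunits stayed at 4 and 3. Itgae rests on as few as 17 counts in a library, which limits its precision. Of 48 other named genes 9 lost a call in 1 or more alternatives and 0 reversed; among those in the text were Ptk2b (in 3, adjusted p up to 0.0697), Cdh1 (in 2, up to 0.0727), Tns4 (in 2, up to 0.153), Tbc1d23, Scaf11 and Pik3cd.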
